A study of Mus musculus with 6 samples.

Results

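The 10 genes described here encode the inducible nitric oxide synthase and the enzymes and transporters around it that supply, recycle and break down arginine and that make and acetylate polyamines. They are Nos2, Gch1, Slc7a1, Slc7a2, Ass1, Asl, Arg1, Arg2, Odc1 and Sat1, matched by symbol to 10 of the 55453 rows of the authors' count table. All 10 passed the filter on low counts and stand among the 14877 genes tested. They were measured in 6 poly(A)-selected RNA libraries whose source is labelled SB28, a mouse glioma cell line, with the strain label C57BL/6. Of these, 3 are labelled PP2AcKO with the genotype PP2A KO, and 3 are labelled PP2AcWT with the genotype Wild Type. PP2Ac is the catalytic subunit of the serine and threonine phosphatase PP2A. The design text of the series instead speaks of SB28 tumours taken 18 days after implantation under the skin or into the brain of WT and LysMcrePP2Acfl/fl mice. There the deletion would be in host myeloid cells, in which the LysM promoter drives Cre. The labels do not say how the knockout was made, whether it is 1 clone, or whether the libraries came from separate cultures or animals. Unless they did, a p-value here reflects no more than how far these libraries spread.

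Arginine enters cells through cationic amino acid transporters and stands at a fork. Nitric oxide synthases turn it into nitric oxide and citrulline, with tetrahydrobiopterin as cofactor, and citrulline can be rebuilt into arginine by the products of Ass1 and Asl. Arginases instead split it into ornithine and urea, and ornithine decarboxylase, the product of Odc1, opens the polyamine pathway from ornithine. Putrescine, spermidine and spermine follow, and the Sat1 product acetylates the longer polyamines for export or oxidation. In tumours, Nos2 and Arg1 are best known as genes of activated and suppressive myeloid cells, and Odc1 as a growth gene under MYC.

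The libraries held 40245915 to 46149908 counts in the knockout and 38735864 to 49344079 in the wild type. Ppp2ca, which encodes the main form of that subunit, stood at 187 to 217 CPM (counts divided by the TMM-scaled library size) in the knockout libraries, against 244 to 274 CPM in the wild type (log2 fold change -0.36 with an SE of 0.08; adjusted p = 0.00377). The transcript was thus present in both groups, and the altered stretch of the gene is not given in the labels. Opposite-strand genes have exons over 41.3% of its exonic sequence. Ppp2cb, which encodes the other form of the subunit, was higher in the knockout, at 125 ± 2.05 CPM against 85.9 ± 2.28 CPM (SD, n = 3 each). Its log2 fold change was 0.54 (SE 0.06, adjusted p = 6.34e-05). Each adjusted p comes from the quasi-likelihood test of edgeR, adjusted by Benjamini-Hochberg across the 14877 genes, and a gene below 0.05 counts as passing. Both libraries numbered 1 stood apart from libraries 2 and 3 of their groups. Of 18 myeloid marker genes, Adgre1, Tyrobp and S100a9 had 0 counts in all 6 libraries. Ptprc, the pan-leukocyte gene, was at 0.0856 CPM in the knockout and 0.231 CPM in the wild type. The summed level of the 18 was 57.2 to 63.3 CPM in the knockout, against 14.8 to 16.5 CPM in the wild type. Cd14 made up most of both sums, at 49.4 and 11.3 CPM, and the 4 markers that were tested, Cd14, Cd68, S100a8 and Mrc1, were all higher in the knockout. S100a8 passed the filter on low counts only through the knockout libraries and so had to differ. Markers below the filter went both ways, with Csf1r and Cx3cr1 lower in the knockout, like Ptprc, and Lyz2 and Fcer1g higher. Of 8 lymphoid markers, 6 had 0 counts in all libraries. The summed level of 9 glial and tumour markers was 2975 to 2987 CPM in the knockout, against 6004 to 6160 CPM in the wild type, and of the 7 tested 1 was higher and 5 were lower. Vim made up most of both sums, at 1882 CPM in the knockout and 4791 CPM in the wild type. Nes was at 164 and 368 CPM, and Cspg4 at 0.127 and 8.66 CPM. Cd44, the next largest part of both sums, was not lower in the knockout, at 805 CPM against 771 CPM. Nor was Pdgfra, at 49.05 CPM against 39.81 CPM. Cspg4 and S100b passed the filter only through the wild-type libraries, so their calls as lower were in part set by the filter. The part of these marker differences in the results that follow was not tested. Olig2 had 0 counts in all 6 libraries and Gfap was at 0.0809 CPM in the knockout and 0.0393 CPM in the wild type.

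The 10 genes were chosen by function and selected on the knockout to wild-type differences of this same table, which were known, among them that of Nos2. Their fold changes are therefore given as a description, with a standard error and without a p-value, and whether the fit over all genes calls them is stated only to place them. In that fit 9 of the 10 were called, 7 higher and 2 lower, where 64.0% of all tested genes were called, 31.9% higher and 32.1% lower. Likewise 9 of the 10 had CPM ranges that did not overlap between the groups, which holds for 68.3% of all tested genes. Nos2, Slc7a2 and Arg2 passed the filter only through the knockout libraries, and Arg1 only through the wild type, so these 4 had to differ. The median log2 fold change of the 10 was 2.44, against -0.01 over all tested genes. In bulk RNA, more cells that express a gene and more RNA per cell cannot be told apart.

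**Figure D1:**
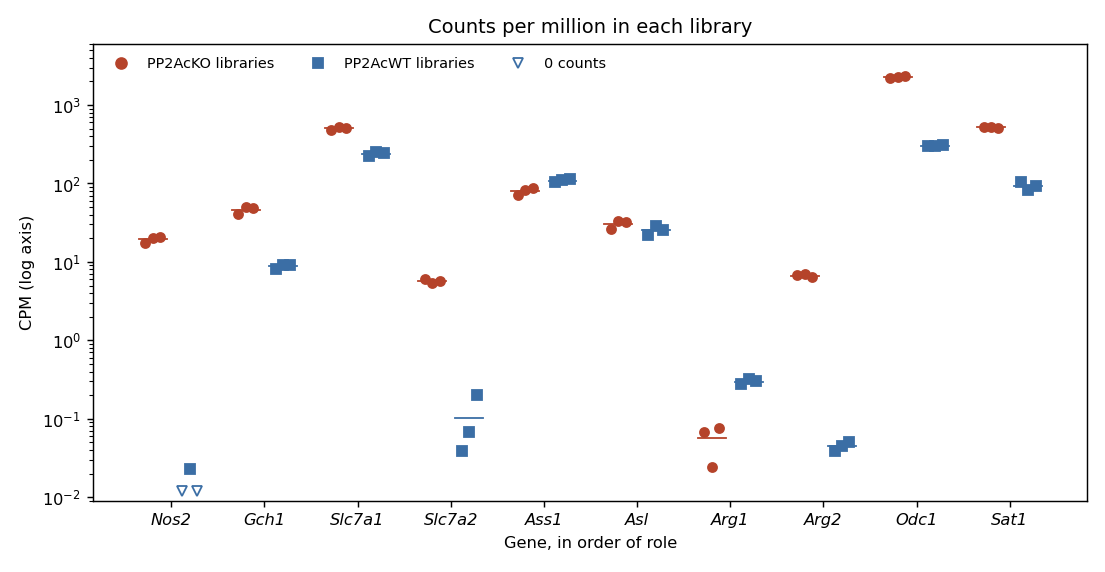
CPM of the 10 genes on a log axis in the 3 knockout libraries (red circles) and the 3 wild-type libraries (blue squares), with bars at the group means and open triangles for 0 counts. The groups overlap only for Asl. Of the others, Arg1 and Ass1 are lower in the knockout and 7 are higher.

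Nos2, the inducible nitric oxide synthase (chromosome 11, 78920787 to 78960254, plus strand, GRCm38), went with the knockout label almost completely. Knockout 1, 2 and 3 held 777, 821 and 811 counts, against 0, 1 and 0 in wild type 1, 2 and 3. These are 17.4, 20.04 and 20.7 CPM in the knockout, against a mean of 0.00756 CPM in the wild type. The ratio of scaled counts was 2605, with a 95% exact counting interval of 467 to 102924 that covers counting error only. Without wild type 2, which held the single count, Nos2 was at least 584-fold higher against a floor of 3 counts over the remaining wild-type libraries. It had the fifth highest fitted fold change of all tested genes. The summed myeloid markers above, mostly Cd14, were higher in the same libraries. Those below the filter on low counts went both ways, with Ptprc lower, and Adgre1 and Tyrobp had 0 counts. The part of these markers in the Nos2 difference was not tested. The other synthases were scarce in both groups. Nos1, the neuronal form, had 1 count in the knockout and 2 in the wild type, and Nos3, the endothelial form, had 34 and 27 (adjusted p = 0.367). Nos1 and Nos3 are named after their values were seen.

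Gch1, which encodes GTP cyclohydrolase, the first and rate-limiting enzyme of tetrahydrobiopterin synthesis (chromosome 14, 47153895 to 47189413, minus strand), was higher in the knockout. Its levels were 40.8, 49.7 and 48.5 CPM in knockout 1, 2 and 3, against 8.03, 9.23 and 9.09 CPM in the wild type. Library 1 was the lowest of each group, and the groups were far apart. The fold was 5.28 (log2 fold change 2.40, SE 0.11), and the ratio within each library number was 5.08, 5.38 and 5.34.

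Of the enzymes that follow Gch1, Spr was lower in the knockout and Pts did not pass. Of 8 listed genes of cofactor synthesis and recycling outside the 10, 6 were tested, of which 1 rose, 2 fell and 3 did not pass, with a median log2 fold change of -0.10. This count and those of the lists below stand beside 31.9% higher and 32.1% lower over all tested genes. Spr, the sepiapterin reductase that completes the cofactor, fell to 24.2 ± 5.13 CPM in the knockout, against 42.3 ± 4.42 CPM in the wild type (SD, n = 3 each; log2 fold change -0.81, SE 0.15, adjusted p = 0.0015). Pts, the enzyme between Gch1 and Spr, was at 7.04, 5.52 and 5.88 CPM in knockout 1, 2 and 3 and at 7.87, 5.58 and 6.57 CPM in the wild type (log2 fold change -0.12, adjusted p = 0.504). Gchfr, whose product is the feedback inhibitor of the Gch1 enzyme, fell to 19.0 ± 3.24 CPM, against 26.9 ± 3.03 CPM in the wild type (adjusted p = 0.0102, log2 fold change -0.50, SE 0.14). Qdpr, a reductase of the oxidised cofactor, was at 112 CPM in the knockout and 118 CPM in the wild type (adjusted p = 0.471). Exons of opposite-strand genes cover 18.6% of the exon bases of Qdpr.

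The nitric oxide list holds the other synthases and genes that act on synthases, beside genes downstream of nitric oxide. In it 7 of 12 listed genes were tested, of which 2 rose, 1 fell and 4 did not pass. With the replicate number as a block 2 fell, since Adh5, the S-nitrosoglutathione reductase, was then called lower (log2 fold change -0.13, adjusted p = 0.0140, against 0.141 without the block). Ddah2, which clears methylated arginines that inhibit the synthases, fell to 23.1 ± 5.16 CPM in the knockout against 43.5 ± 5.37 CPM (adjusted p = 0.00108, log2 fold change -0.91, SE 0.16). Nosip, whose product binds nitric oxide synthase, passed narrowly at 51.6 ± 6.93 against 40.6 ± 4.28 CPM (log2 fold change of 0.35 ± 0.12 SE, adjusted p = 0.0278). It did not pass without knockout 2 (0.0779), knockout 3 (0.0972) or wild type 1 (0.0773), or with upper-quartile scaling (0.0614). Gucy1a2, an alpha subunit of the nitric oxide receptor guanylate cyclase, held 49, 41 and 26 counts in knockout 1, 2 and 3, against 2, 3 and 1 in the wild type. It is counted among the 2 that rose, but it passed the filter on low counts only through the knockout libraries and so had to differ. The beta subunit gene Gucy1b1 and the other alpha subunit gene Gucy1a1, both named after their values were seen, had 0 counts in all 6 libraries.

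Both transporters among the 10 were higher in the knockout, from very different levels. Slc7a1, which encodes the widely expressed cationic amino acid transporter CAT1 (chromosome 5, 148327410 to 148399904, minus strand), was at 482, 529 and 515 CPM in knockout 1, 2 and 3, against 222, 249 and 247 CPM in the wild type. The groups were far apart, with library 1 lowest in each, and the fold was 2.12 (log2 fold change 1.09, SE 0.07). Slc7a2, which encodes CAT2, the inducible transporter that feeds Nos2 in mouse macrophages (chromosome 8, 40862396 to 40922308, plus strand), held 267, 219 and 224 counts in the knockout, against 2, 3 and 8 in the wild type. That is 5.98, 5.34 and 5.72 CPM against 0.0392, 0.0680 and 0.201 CPM. Wild type 3 held 8 of the 13 wild-type counts, and the fold of 57.1 (log2 fold change 5.84, SE 0.29) was 102 without that library. Without both libraries numbered 1 the fold was 41.4. Exons of an antisense RNA, Gm26584, which had 1 count in all 6 libraries together, lie over 6.95% of the Slc7a2 exon bases. Per kilobase of exon, Slc7a1 still exceeded Slc7a2 by 108 ± 11.1 times in the knockout (SD, n = 3), against 1480 to 6853 times in the wild type.

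Of 12 other listed genes of cationic amino acid transport, 8 were tested, of which 4 rose, 3 fell and 1 did not pass. Slc3a2, the heavy chain that carries several of these transporters to the surface, rose to 436 ± 17.0 CPM in the knockout, against 200 ± 8.63 CPM (log2 fold change of 1.13 ± 0.07 SE, adjusted p = 1.05e-06). Slc7a3, which encodes a further arginine transporter, CAT3, rose to 25.6 ± 2.62 CPM against 17.3 ± 1.59 CPM (adjusted p = 0.00141, log2 fold change 0.57, SE 0.11). Slc25a15, the mitochondrial ornithine carrier, fell to 14.0 ± 0.616 CPM against 20.6 ± 0.533 CPM (log2 fold change of -0.56 ± 0.08 SE, adjusted p = 0.00027). Slc7a4, a relative without known arginine transport, fell to 1.21 ± 0.1 CPM against 2.72 ± 0.433 CPM (adjusted p = 0.000351, log2 fold change -1.16, SE 0.17), with exons of P2rx6 over 13.3% of its exon bases.

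Of the enzymes that rebuild arginine from citrulline, Ass1 was lower in the knockout and Asl was not called. Ass1, the argininosuccinate synthase (chromosome 2, 31470207 to 31520672, plus strand), was at 71.1, 82.6 and 86.4 CPM in knockout 1, 2 and 3, against 103, 109 and 113 CPM in the wild type. Every knockout library lay below every wild-type library, by a log2 fold change of -0.44 (SE 0.09), or 1.36-fold. A similar gene, Gm5424, matches 73.1% of the Ass1 transcript and held 40 counts in the knockout and 56 in the wild type. How reads that match both genes were counted is not known here, so these counts do not show how many Ass1 reads were affected. Asl, the argininosuccinate lyase (chromosome 5, 130011258 to 130029247, minus strand), was at 26.4, 33.1 and 32.6 CPM in the knockout, against 22.1, 28.5 and 25.9 CPM in the wild type. The ranges overlapped, and the fit did not call the gene (log2 fold change 0.27, SE 0.12). The overlap came from knockout 1, which lay below wild type 2; library 1 was the lowest of each group. Within library numbers the knockout was 1.19, 1.16 and 1.26 times the wild type, and a fit with the replicate block called Asl at an unchanged log2 fold change of 0.27 with an SE of 0.05. It was also called without knockout 1 (0.38), without wild type 2 (0.36), without both libraries numbered 1 (0.28) and without the filter on low counts (0.28). The ratio of Ass1 to Asl per kilobase was 4.59 ± 0.186 in the knockout and 7.55 ± 0.727 in the wild type (SD, n = 3 each).

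**Figure D2:**
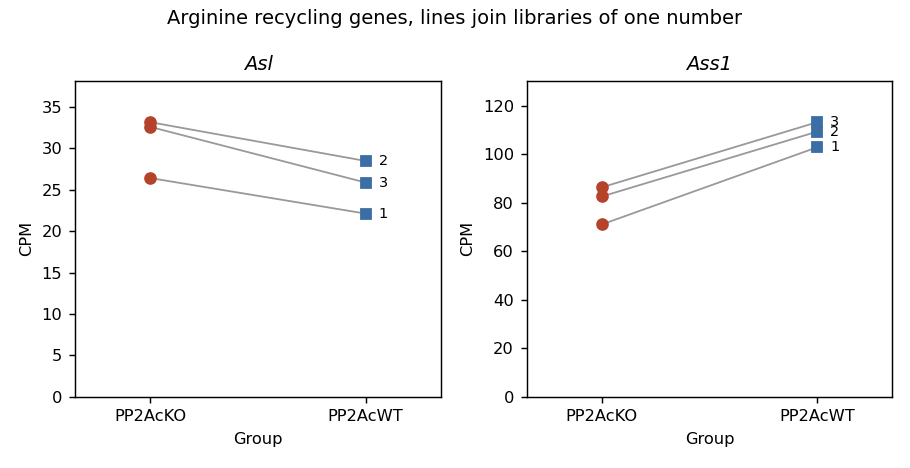
CPM of Asl and Ass1 in each library, knockout (red circles) on the left and wild type (blue squares) on the right, with lines joining libraries of the same number. Every Asl line falls towards the wild type and every Ass1 line climbs towards it, and number 1 is lowest on each side.

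Of the 2 arginases, Arg2 was higher and Arg1 lower in the knockout. Each passed the filter on low counts only through the group where it was high, so both had to differ. Arg2, the mitochondrial arginase (chromosome 12, 79130777 to 79156301, plus strand), held 302, 284 and 250 counts in knockout 1, 2 and 3, against 2 in each wild-type library. These were 6.77, 6.93 and 6.39 CPM, against 0.0392, 0.0454 and 0.0504 CPM. The fold was 141 (log2 fold change 7.14, SE 0.20), the second largest of the 10. Exons on the opposite strand, mainly those of Vti1b, cover 28.1% of the Arg2 exon bases, but Vti1b itself was at 44.8 ± 2.27 CPM in the knockout and 44.0 ± 2.87 CPM in the wild type (SD, n = 3 each). Arg1, the cytosolic arginase of liver and of myeloid cells (chromosome 10, 24915221 to 24927484, minus strand), was scarce everywhere. It held 3, 1 and 3 counts in the knockout, against 14, 14 and 12 in the wild type. The groups did not overlap, and the log2 fold change was -2.35 (SE 0.43), 5.08-fold lower in the knockout. Leaving out 1 library at a time moved that fold between 4.0 and 6.04. Per kilobase, Arg2 stood 86.2 to 294 times above Arg1 in the knockout, whereas Arg1 stood 5.80 to 6.77 times above Arg2 in the wild type. These ratios rest on 7 counts of Arg1 in the knockout and 6 counts of Arg2 in the wild type.

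Genes that take arginine and ornithine to other ends were mostly lower in the knockout. Of 15 listed genes of arginine, ornithine and proline metabolism outside the 10, 11 were tested, of which 2 rose, 7 fell and 2 did not pass, with a median log2 fold change of -0.95 against -0.01 over all genes. Oat, the mitochondrial aminotransferase that competes for ornithine, fell to 46.6, 45.0 and 46.8 CPM in knockout 1, 2 and 3, against 120, 114 and 117 CPM in the wild type. The log2 fold change was -1.34 (SE 0.06, adjusted p = 2.76e-07). Gatm, which uses arginine for the first step of creatine synthesis, fell to 6.58 ± 0.867 CPM in the knockout against 21.4 ± 2.42 CPM (log2 fold change of -1.70 ± 0.13 SE, adjusted p = 4.53e-06). Gamt, the second enzyme of creatine synthesis, fell to 5.40 ± 1.07 CPM against 22.0 ± 1.21 CPM (adjusted p = 2.97e-06, log2 fold change -2.03, SE 0.14). Aldh18a1, which makes the precursor of proline and ornithine from glutamate, rose to 337 ± 15.8 CPM against 229 ± 5.35 CPM (log2 fold change of 0.56 ± 0.06 SE, adjusted p = 6.54e-05). Otc and Cps1, the urea cycle enzymes of liver, had 2 counts each in the knockout and 0 in the wild type, and were named after their values were seen.

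**Figure D3:**
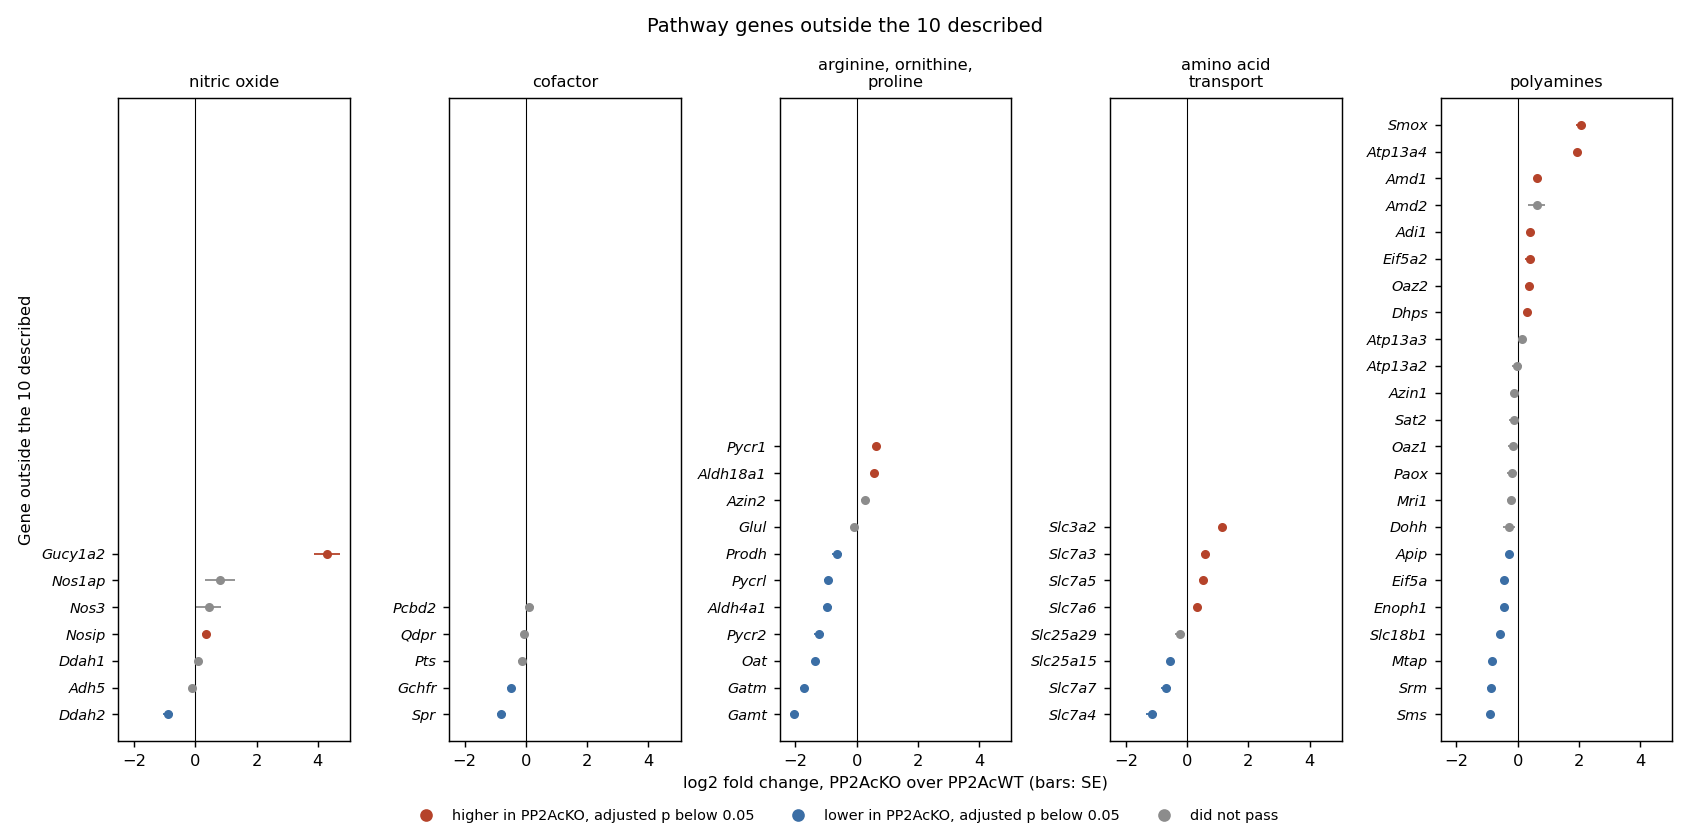
Log2 fold changes, knockout over wild type, of tested pathway genes outside the 10, by list, with bars for the SE; red passed as higher, blue passed as lower and grey did not pass. In the arginine, ornithine and proline panel 7 of 11 genes are lower, down to -2.03 for Gamt, while the polyamine panel holds 7 higher and 7 lower genes.

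Odc1, the rate-limiting enzyme of polyamine synthesis (chromosome 12, 17544794 to 17551505, plus strand), was the most abundant of the 10 in both groups and much higher in the knockout. It was at 2198, 2300 and 2360 CPM in knockout 1, 2 and 3, against 303, 298 and 310 CPM in the wild type. The spread within each group was small, with a coefficient of variation of 3.59% in the knockout and 1.87% in the wild type. The fold was 7.52 (log2 fold change 2.91, SE 0.07). Odc1 took 0.212% to 0.229% of all counts in the knockout libraries, against 0.0306% to 0.0318% in the wild type. Per kilobase of exon it was the 24th most abundant of 14763 genes in the knockout and the 344th in the wild type. Transcripts of 14 other annotated genes match it at 90% identity or more over at least 200 bases. Those genes together held 1628 counts in the knockout and 579 in the wild type, beside 284659 and 40941 for Odc1. These counts likewise do not show how many reads match both Odc1 and a copy.

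Sat1, the spermidine and spermine acetyltransferase that drives polyamine breakdown (chromosome X, 155213132 to 155216449, minus strand), was higher as well. Its levels were 528, 517 and 513 CPM in knockout 1, 2 and 3, against 103, 83.7 and 92.3 CPM in the wild type. The groups were far apart, with a coefficient of variation of 1.48% in the knockout and 10.7% in the wild type. The fold was 5.57 (log2 fold change 2.48, SE 0.09). The ratio of Odc1 to Sat1 per kilobase was 2.36 ± 0.119 in the knockout and 1.76 ± 0.174 in the wild type (SD, n = 3 each).

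Of 24 listed polyamine genes outside the 10, 23 were tested, of which 7 rose, 7 fell and 9 did not pass, with a median log2 fold change of -0.14. Of those tested 60.9% were called, near the 64.0% over all tested genes. With the replicate number as a block 11 fell and 9 rose, and without both libraries numbered 1 the counts were 11 and 7. Srm, the spermidine synthase, fell to 38.0, 50.5 and 49.5 CPM in knockout 1, 2 and 3, against 71.7, 90.04 and 88.6 CPM in the wild type (adjusted p = 0.000359, log2 fold change -0.86, SE 0.13). Sms, the spermine synthase, fell to 73.7, 66.9 and 70.8 CPM, against 146, 122 and 127 CPM (log2 fold change of -0.90 ± 0.08 SE, adjusted p = 1.78e-05). Both synthases were thus lower in every knockout library than in every wild-type library. Amd1, which makes the aminopropyl donor for both, rose to 150 ± 21.1 CPM against 96.3 ± 8.94 CPM (adjusted p = 0.000869, log2 fold change 0.64, SE 0.11). Reads of Amd1 and its near-identical copy Amd2 could be split between them. Mtap, which recycles the by-product of both synthases, fell to 72.9 ± 5.46 CPM against 132 ± 11.4 CPM (log2 fold change of -0.85 ± 0.09 SE, adjusted p = 3.23e-05).

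On the breakdown and transport side, Smox, the oxidase that turns spermine back into spermidine, rose to 126, 173 and 172 CPM in knockout 1, 2 and 3, against 31.9, 42.3 and 39.2 CPM in the wild type. Library 1 was again lowest in each group, and the log2 fold change was 2.06 (SE 0.15, adjusted p = 3.47e-06). Atp13a4, a P5-type ATPase of a family that includes polyamine transporters, rose to 73.3 ± 1.02 CPM against 19.3 ± 1.02 CPM (adjusted p = 7.46e-08, log2 fold change 1.93, SE 0.07). Of the genes that set the stability of the Odc1 enzyme, Oaz1, Azin1 and Azin2 did not pass. Oaz1, the antizyme that targets the enzyme for degradation, was at 201 ± 38.5 CPM in the knockout and 224 ± 27.2 CPM in the wild type (log2 fold change -0.16, adjusted p = 0.357). Azin1, the antizyme inhibitor, was at 376 ± 27.2 CPM in the knockout and 406 ± 33.6 CPM in the wild type (log2 fold change -0.11, adjusted p = 0.273). With the block, both were called lower at about the same size, Oaz1 by 0.17 on the log2 scale (adjusted p = 0.00212) and Azin1 by 0.11 (adjusted p = 0.00792). Oaz2, a second antizyme, passed at 65.7, 89.6 and 94.0 CPM in knockout 1, 2 and 3 against 60.4, 66.8 and 65.9 CPM, with overlapping ranges (log2 fold change of 0.37 ± 0.13 SE, adjusted p = 0.0295). That call was lost without each single library except knockout 1, with adjusted p from 0.0559 to 0.11, and with upper-quartile scaling (0.0628). Azin2, a further antizyme inhibitor, was at 14.1 CPM in the knockout and 11.7 CPM in the wild type (log2 fold change 0.28, adjusted p = 0.119) and was called with the block (log2 fold change 0.27, adjusted p = 0.00125).

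**Figure D4:**
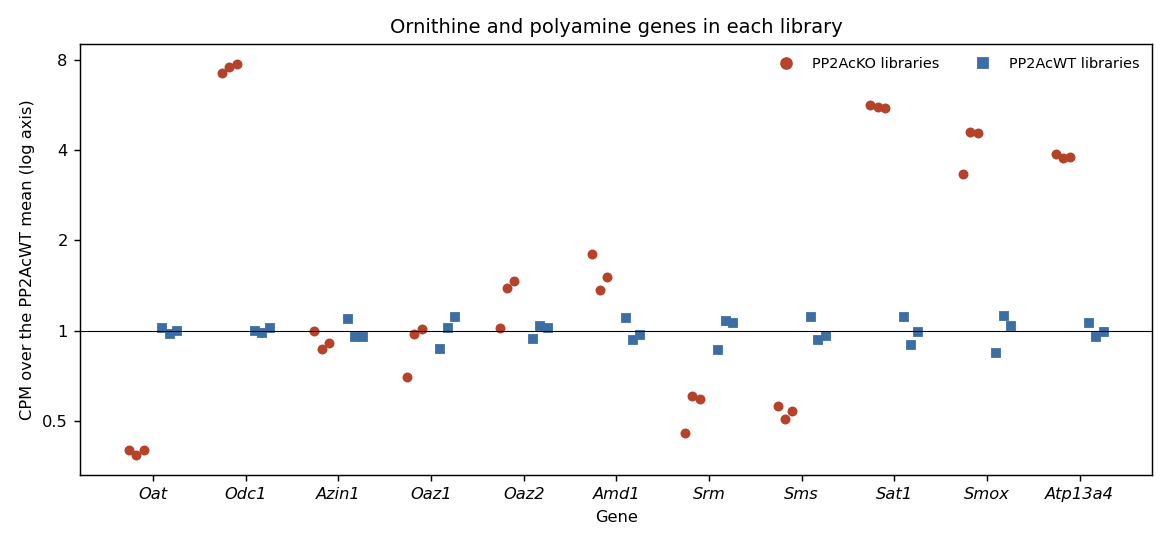
CPM of ornithine and polyamine genes in each library divided by the wild-type mean of the gene, on a log axis, for knockout (red circles) and wild type (blue squares). Odc1, Sat1, Smox and Atp13a4 lie well above 1 in all 3 knockout libraries, Oat, Srm and Sms lie below it, and Azin1 and Oaz1 overlap with the wild type.

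Levels can be ordered between genes only per exon length. In the knockout, CPM per kilobase of exon fell in the order Odc1 (1035 ± 37.1), Sat1 (439 ± 6.50), Slc7a1 (70.9 ± 3.33), Ass1 (47.2 ± 4.70), Gch1 (16.7 ± 1.75), Asl (10.3 ± 1.25), Arg2 (4.69 ± 0.195), Nos2 (4.51 ± 0.407), Slc7a2 (0.656 ± 0.0371) and Arg1 (0.0380 ± 0.0189; SD, n = 3). Of the neighbours in that order only Arg2 and Nos2 had overlapping ranges. In the wild type the order was Odc1 (138 ± 2.58), Sat1 (78.7 ± 8.40), Ass1 (64.0 ± 3.08), Slc7a1 (33.4 ± 2.05), Asl (8.54 ± 1.07), Gch1 (3.16 ± 0.237), Arg1 (0.202 ± 0.0149), Arg2 (0.0315 ± 0.00393), Slc7a2 (0.0119 ± 0.00999) and Nos2 (0.00176 ± 0.00305). There only Slc7a2 and Nos2 overlapped. With all annotated exons as length in place of those of the basic transcript set, 8 of the 10 kept their place in the wild type, Sat1 and Ass1 changing places, and all 10 did in the knockout. The knockout level of Nos2, where the wild type held 1 count in all, was modest, since 43.7% of the ranked genes lay below it. Gch1 per kilobase was 3.70 ± 0.124 times Nos2 in the knockout libraries. The size of this ratio depends on the exon set. Gch1 has 2775 exon bases in the basic set and 6251 in all annotated exons, against 4296 and 4412 for Nos2. The other per-kilobase ratios between genes depend on the exon set too, and their SDs cover the spread between libraries only.

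**Figure D5:**
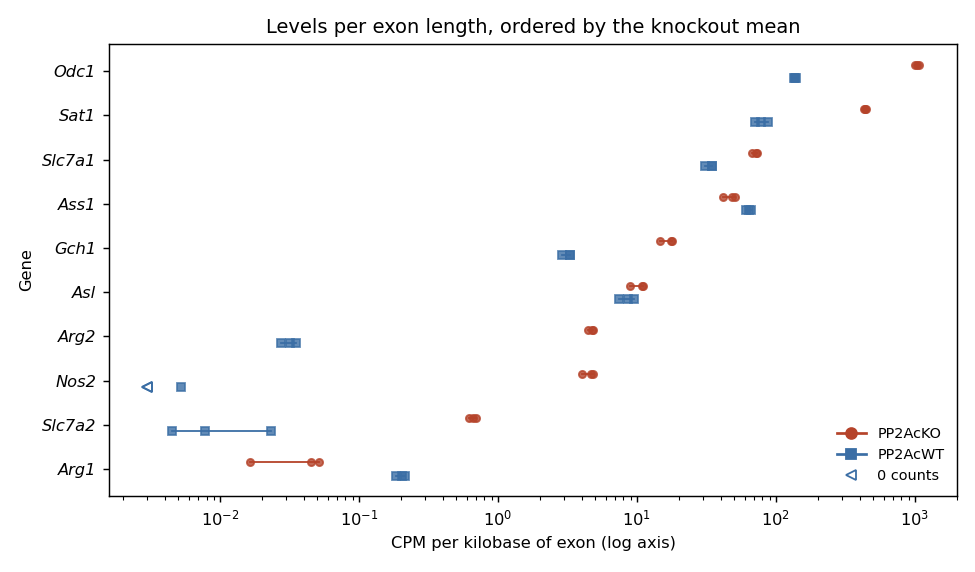
CPM per kilobase of exon of the 10 genes in each library on a log axis, ordered from the highest to the lowest knockout mean, with knockout circles above wild-type squares and open triangles for 0 counts (2 overlaid for Nos2). Arg2 and Nos2 lie side by side in the knockout, while Arg1 is the one gene at the foot of the order that is higher in the wild type.

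Promoter sequence was at hand for 5 of the 10 (RefSeq, GRCm38.p6): Gch1, Slc7a1, Ass1, Odc1 and Sat1; Nos2, Slc7a2, Asl, Arg1 and Arg2 are named only. Shown are the 150 bases before the GENCODE gene start of 3 genes that were higher in the knockout and of Ass1, which was lower. Capitals mark matches, on either strand, to a loose form of the kappaB element bound by NF-kB (GGG, any 5 bases, CC), and overlapping matches run together.
Gch1, chr14:47189414-47189563, minus strand: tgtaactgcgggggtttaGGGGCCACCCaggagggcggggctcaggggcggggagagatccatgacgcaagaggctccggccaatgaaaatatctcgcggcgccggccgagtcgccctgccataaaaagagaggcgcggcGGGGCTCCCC
Odc1, chr12:17544644-17544793, plus strand: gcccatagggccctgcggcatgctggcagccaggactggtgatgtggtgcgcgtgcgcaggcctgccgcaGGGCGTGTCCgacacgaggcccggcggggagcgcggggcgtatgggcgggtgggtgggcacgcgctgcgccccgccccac
Sat1, chrX:155216450-155216599, minus strand: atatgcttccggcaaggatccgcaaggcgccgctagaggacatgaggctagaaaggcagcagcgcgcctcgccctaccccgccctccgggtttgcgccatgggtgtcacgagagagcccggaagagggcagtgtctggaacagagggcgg
Ass1, chr2:31470057-31470206, plus strand: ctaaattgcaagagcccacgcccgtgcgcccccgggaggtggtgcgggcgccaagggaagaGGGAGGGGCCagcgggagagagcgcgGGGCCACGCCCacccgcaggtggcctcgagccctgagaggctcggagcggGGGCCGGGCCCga
In the 250 bases before the RefSeq start, which for Odc1 and Ass1 lies downstream of the GENCODE start, the kappaB pattern matched 3 times in Gch1, 5 times in the main Slc7a1 promoter, 6 times in Ass1, once in Odc1 and 0 times in Sat1. This loose pattern is found in 45.8% of all 32851 promoters of that length. The E-box CACGTG, the sequence bound by MYC, was found in the window of Ass1 and in 6.02% of all promoters. The interferon-linked patterns TTCNNNGAA and the ISRE core (GAAA, any 2 bases, GAAA) occur in 7.02% and 2.98% of promoters and TGATGNAA, a form of the ATF4 element, in 3.45%. Of these, TTCNNNGAA matched once, in a second annotated Slc7a1 promoter. The windows were rich in G and C, at 59.2% in Gch1, 80.0% in Odc1, 59.6% in Sat1 and 75.6% in Ass1.

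The regulator list holds 22 transcription factors, receptors and signalling genes tied to the control of Nos2 or Arg1, all tested. Of them 19 rose, 1 fell and 2 did not pass. The median log2 fold change was 0.73, against -0.01 over all genes. The list was drawn up with earlier results of these data known. It does not sort its genes by their effect on Nos2 or on Arg1. Stat6, Cebpb and Hif1a, named after their values were seen, were also among those that rose (log2 fold changes 0.65, 2.64 and 1.40). Over all tested genes 31.9% were called higher and 32.1% lower. Nfkbiz, a nuclear IkB protein that acts with NF-kB on secondary response genes, rose to 192 ± 3.03 CPM in the knockout against 25.1 ± 1.502 CPM (adjusted p = 1.08e-08, log2 fold change 2.94, SE 0.07). Cebpd, a transcription factor of the acute phase response, rose to 319 ± 52.1 CPM against 30.7 ± 4.04 CPM (log2 fold change of 3.38 ± 0.15 SE, adjusted p = 1.82e-07), with exons of Spidr over 15% of its exon bases. Ifngr2, a chain of the interferon gamma receptor, rose to 76.6 ± 4.498 CPM against 32.8 ± 1.02 CPM (adjusted p = 1.15e-06, log2 fold change 1.22, SE 0.07). Nfkb1, which encodes the p50 subunit of NF-kB, rose to 239 ± 5.18 CPM against 119 ± 4.04 CPM (log2 fold change of 1.0 ± 0.06 SE, adjusted p = 1.47e-06). The member that fell was Irf1, a transcription factor required for Nos2 induction in mouse macrophages, named after its value was seen, at 26.8 ± 2.14 CPM against 35.8 ± 1.18 CPM (adjusted p = 0.0019, log2 fold change -0.42, SE 0.08). These libraries hold no measure of whether any of these gene products acted on Nos2 or Arg1.

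The genes whose pattern over the 6 libraries lay nearest to that of Nos2, by Euclidean distance between mean-centred log2 CPM values, were Slfn2 (0.79), Steap4 (0.81), Lilrb4a (1.10), Csf2 (1.11) and Slfn4 (1.12). All 5 were close to silent in the wild type. Slfn2, a Schlafen family gene, was at 40.7 ± 1.48 CPM in the knockout against 0.118 ± 0.0177 CPM, and Csf2, which encodes the growth factor GM-CSF, at 38.1 ± 1.75 CPM against 0.0701 ± 0.0484 CPM. Steap4, a metalloreductase gene, held 3633 counts in the knockout and 1 in the wild type, Lilrb4a, an inhibitory receptor gene with a close paralog, 3196 and 2, and Slfn4 1552 and 1. The distance over 6 libraries is dominated by the difference between the groups, which the choice of Nos2 fixed.

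The libraries numbered 1 deviated in the same direction for several of the 10. Among the 9 genes with at least 30 counts in the knockout, library 1 was the lowest for 6 and the highest for 2, at 0.803 to 1.08 times the mean of libraries 2 and 3. In the wild type it was the lowest for 5 of 7 and the highest for 1, at 0.814 to 1.18 times. Asl was the most variable of these genes in both groups, with a coefficient of variation of 12.2% in the knockout and 12.5% in the wild type.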

How the data were processed

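RNA abundance was measured in 6 libraries, 3 per group. The authors deposited raw read counts per gene symbol; per the submitters' processing notes, STAR 2.7.1a, HTSeq 0.11.2 and fastp 0.20.0 were used, as were limma 3.48.3 and edgeR 3.34.0, with builds GRCm38 and mm10 and no roles stated. Neither annotation nor strand setting is given in the sources used here, so reads of genes that overlap on opposite strands cannot be told apart. Columns were matched by title, with 0 columns of other samples. Intervals and floors cover error of counting alone. Promoters are from RefSeq (GRCm38.p6).

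Genes were kept by filterByExpr (edgeR 4.0.16, R 4.3.3, minimum count 10), scaled by TMM and compared by group with glmQLFit and glmQLFTest. Benjamini-Hochberg adjustment ran over the 14877 tested genes, which held 99.9% of the counts of every library, with a threshold of 0.05. Each SE is the log2 fold change divided by the square root of its F statistic. The code was tested on simulated data. Exon lengths (basic set), positions and overlaps came from GENCODE M21 on GRCm38, and similar transcripts from BLAST 2.17.0 (90% identity, 200 bases).

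The 10 genes and all lists were chosen with earlier results of these data known. Named besides the 10 are 13 genes acting directly on their products, up to 4 per list with the smallest adjusted p, and the 5 nearest to Nos2 in log2 CPM (prior count 2). A gene of the cofactor list is counted there but not reported or plotted here. No pair of libraries of a group agreed within sampling noise (chi-square per degree of freedom 3.41 to 48.4), so all 6 were kept. Deviations of libraries with the same number correlated across genes (r = 0.44, 0.16 and 0.15 for numbers 1, 2 and 3). Libraries 2 and 3 correlated as much across numbers (0.19 and 0.15), so pairs show only for the libraries numbered 1. The reported fit holds the group alone and does not pair libraries. Pairing by number entered only the repeat with the replicate block, which called 11495 genes, against 9525 in the reported fit.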

Additional observations from a re-analysis of the deposited data

How the results depend on the processing

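The analysis was repeated with DESeq2 size factors, upper-quartile factors, the DESeq2 test (1.42.0), no filter on low counts, the replicate block, each library left out in turn, and both libraries numbered 1 left out. The 10 genes kept their direction in each of these, and 9 kept their call, Asl gaining one in 5. Counts over all genes, over the 10 and over all listed pathway genes stayed within 1.5 times of those reported. In the nitric oxide list 1 gene rose and 2 fell with upper-quartile factors, 2 fell with the replicate block, and 1 to 2 rose with 1 library left out. In the polyamine list 11 fell with the block and 11 without both libraries numbered 1, and 4 to 7 rose with 1 library left out. In the cofactor list 1 to 2 rose with 1 library left out. Besides those of Asl, Adh5, Azin1, Oaz1 and Azin2, given with the results, the block changed no call of a named pathway gene. Upper-quartile factors made 44.8% of all calls higher, against 49.9%. The cause of these changes was not tested. Of the 31 named pathway genes, 2 lost and 4 gained a call in some setting, and 0 called genes reversed; the uncalled Oaz1, Pts and Qdpr changed sign in some setting, at most to 0.0045, 0.021 and 0.019 on the log2 scale. Depth limits Nos2, Slc7a2 and Arg2 in the wild type and Arg1 in the knockout.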

Other observations

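Cdh5, the cadherin gene of endothelial junctions, was abundant in both groups, at 435 CPM in the knockout and 415 CPM in the wild type. Other endothelial genes did not accompany it. Pecam1 was at 0.344 CPM in the knockout and 0.282 CPM in the wild type, and Cldn5 had 0 counts in all 6 libraries. Kdr and Vwf, at 7.78 and 5.69 CPM in the knockout, were at 1.65 and 0.650 CPM in the wild type. Tek went the other way, at 0.295 CPM in the knockout and 1.40 CPM in the wild type. S100a8 was at 3.481 CPM in the knockout and 0.0450 CPM in the wild type, while its usual partner S100a9 had 0 counts in all 6 libraries.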
